A study of Mus musculus with 6 samples.

Results

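The genes of MHC class II antigen presentation were followed through RNA-Seq libraries of mouse naive CD4+ T cells and of the Th17 and Th1 cells made from them. The set holds 7 of the 24223 genes counted, taken by symbol: the chains *H2-Aa*, *H2-Ab1* and *H2-Eb1*, the peptide exchange factors *H2-DMa* and *H2-DMb1*, the invariant chain *Cd74* and the coactivator *Ciita*. They were grouped because class II expression can point to antigen-presenting cells in a T cell culture. Each of the 7 genes had counts in all 6 libraries and passed the filter on low counts, so each was tested.

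According to the methods, Naive cells were CD4+CD62L+ cells, CD44-, isolated with a magnetic kit from pooled lymph nodes and spleens of C57BL/6 mice aged 1 to 2 months. Th17 cells were Naive cells activated through CD3 and CD28 for 5 days with anti-IL-4, anti-IFN-γ, TGF-β, IL-6, IL-1β and IL-23. Th1 cells were activated in the same way for 5 days with anti-IL-4, IL-12 and IL-2. Activation used either plate-bound anti-CD3 with soluble anti-CD28 or beads that carry both antibodies, and which one served each library is not given in the sources used here. By flow cytometry, the paper reports the isolated Naive cells as mostly, but not wholly, pure. No step that sorted the cells again before RNA extraction is described in the methods. Each cell type had 2 libraries, which the methods describe as biological replicates.

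The depth was between 59973041 and 69080017 counts in the replicate 1 libraries and between 17742158 and 18608805 counts in the replicate 2 libraries. Expression is given as CPM, the counts of a gene scaled to a common library size with TMM factors. The labels were checked against defining genes. *Il17a* was highest in both Th17 libraries, with at least 526 CPM, and *Tbx21* and *Ifng* in both Th1 libraries, with at least 138 and 157 CPM. *Ccr7*, which marks naive and memory T cells, did not set Naive apart, with 346 CPM in Th1 replicate 1 against 296 CPM in Naive replicate 1. *Ifng* was also measured in Th17, at 64.6 and 48.7 CPM. All 8 T cell markers examined were above 1 CPM in every library, among them *Cd4* at 422 to 740 CPM.

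MHC class II molecules display peptides from endocytosed proteins to CD4+ T cells. Their α and β chains pair in the endoplasmic reticulum with the invariant chain CD74, which occupies the peptide groove until proteases in endosomes cut it down to a fragment. H2-DM exchanges this fragment for a peptide, and H2-O restrains H2-DM. CIITA does not bind DNA itself: it is recruited to class II promoters by RFX, CREB and NF-Y, which sit on the X and Y boxes upstream of these genes. B cells, dendritic cells and macrophages are the usual sources of class II, whereas mouse T cells are generally regarded as making little of it.

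The shared promoter elements are shown here for 4 class II genes, because *H2-Eb1* and *H2-Aa* are among the genes that changed most between the cell types while *H2-DMb1* and *H2-Ob* are not. The sequences are from RefSeq on GRCm38.p6 and run 5′ to 3′ on the strand of the gene. They cover chr17:34287854-34287958 for *H2-Aa* (minus strand), chr17:34305721-34305825 for *H2-Eb1*, chr17:34153043-34153147 for *H2-DMb1* and chr17:34238761-34238865 for *H2-Ob* (plus strand). Capitals mark matches to an X box core, read as GNAAC and then ATGATG after a gap of 2 bases, and to a Y box core, TGATTGG, an extended form of the inverted CCAAT motif.
H2-Aa: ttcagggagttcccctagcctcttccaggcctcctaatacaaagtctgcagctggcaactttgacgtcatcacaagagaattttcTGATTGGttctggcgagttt
H2-Eb1: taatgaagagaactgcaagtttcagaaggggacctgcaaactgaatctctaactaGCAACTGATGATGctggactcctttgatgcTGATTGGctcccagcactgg
H2-DMb1: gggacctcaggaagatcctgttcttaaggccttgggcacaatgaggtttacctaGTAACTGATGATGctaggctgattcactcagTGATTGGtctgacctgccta
H2-Ob: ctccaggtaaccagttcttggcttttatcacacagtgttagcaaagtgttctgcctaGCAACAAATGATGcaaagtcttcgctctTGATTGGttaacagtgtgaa

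*H2-Eb1*, *H2-DMb1* and *H2-Ob* each held both cores on the strand of the gene, the X box core first and the Y box core ending at position -55, -57 or -53 from the start site. Both letter strings were written with these sequences in view, so their presence in them is a description. Both strands of 32851 RefSeq promoters of the same length were searched, and the cores do not overlap each other where both were found. The X box core was in 17 promoters (0.0517%) and the Y box core in 2568 (7.82%). An X box core followed on the gene's strand by a Y box core 10 to 40 bases on was found in 3 promoters (0.00913%), those of *H2-Eb1*, *H2-DMb1* and *H2-Ob*. *H2-Aa*, *H2-Oa*, *H2-DMb2* and *H2-Eb2* had a Y box core and no match to these letters of the X box. The promoters of *H2-Ab1* and *Ciita* were not analysed here, and the windows listed for *H2-DMa* held neither core.

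**Figure D1:**
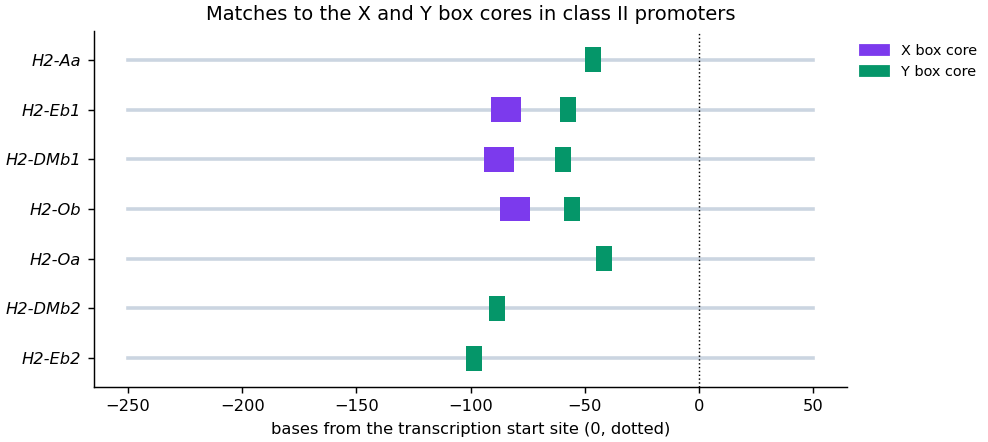
Positions of the X box core and Y box core matches (coloured blocks) in the promoter windows of 7 class II genes, in bases from the transcription start site. The Y box core lies upstream of the start in each window, and 3 genes carry the X box core 5′ of it.

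The classical chains were highest in Th17. In bulk RNA, fewer or more cells that express a gene and less or more RNA per cell cannot be told apart. *H2-Aa*, the α chain of the I-A molecule, had 2.28 and 0.248 CPM across the Naive libraries, 30.6 and 76.4 across Th17 and 3.51 and 2.09 across Th1. The Th17 libraries were both far above the other 4, and one Th1 library lay below the higher Naive library. *H2-Eb1*, the β chain of I-E, gave 3.11 and 0.644 CPM (Naive), 50.5 and 76.9 CPM (Th17) and 4.10 and 3.86 CPM (Th1). Here the Th17 libraries again stood apart, and the 2 Th1 libraries were nearly level. *H2-Ab1*, the β chain of I-A, gave 14.8 and 2.03 CPM in Naive cells, 88.6 and 136 in Th17 cells and 27.4 and 61.3 in Th1 cells. Its means were 8.42 ± 9.04, 112 ± 33.7 and 44.4 ± 24.0 CPM in the same order (SD, n = 2). This was the classical chain for which Th1 came closest to Th17, and the 3 cell types did not overlap in it.

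These genes lie together on chromosome 17 of GRCm38 in GENCODE vM21, *H2-Ab1* from 34257689 to 34269419, *H2-Aa* from 34282744 to 34287823 and *H2-Eb1*, with an antisense gene annotated over it, from 34305867 to 34316674. From Naive to Th17, *H2-Aa* rose by 5.27 on the log2 scale, or 38.5-fold (standard error, SE, 0.82, adjusted p = 0.0028 by edgeR's quasi-likelihood test) and *H2-Eb1* by 4.99 (SE 0.62, adjusted p = 8.8e-04). A gene was called when its adjusted p was under 0.01 and its log2 fold change above 1 in size. *H2-Ab1* had a change of 3.70 (SE 0.76, adjusted p = 0.011), which missed that threshold, whereas DESeq2 called it (adjusted p = 0.0059). Its value turned on the Naive replicates, with 5.79 without Naive replicate 1 (adjusted p = 6.7e-04) and 2.92 without Naive replicate 2 (adjusted p = 0.0073). Without Th17 replicate 2, *H2-Aa* was no longer called (4.51, adjusted p = 0.016). From Th17 to Th1, *H2-Aa* changed by -4.22 (SE 0.78, adjusted p = 0.0069) and *H2-Eb1* by -4.00 (SE 0.59, adjusted p = 0.0024), while *H2-Ab1* was at -1.35 (SE 0.69, adjusted p = 0.20). None of the 3 chains was called between Th1 and Naive.

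The 3 chains did not keep a fixed ratio. Per 100 counts of *H2-Ab1* there were 34.5 and 56.1 counts of *H2-Aa* in the Th17 libraries, 15.4 and 12.2 in Naive, and 12.8 and 3.4 in Th1. For *H2-Eb1* there were 56.9 and 56.5 counts per 100 of *H2-Ab1* in Th17, 21.0 and 31.7 in Naive, and 15.0 and 6.29 in Th1. Both ratios were thus highest in Th17 and lowest in Th1 replicate 2. An exact permutation test (two-sided) on 2 and 2 libraries has 0.333 as its smallest p, so none was run on these ratios. On a scale per kilobase of exon, which allows genes to be compared, *H2-Ab1* stood at 10.7 and 23.9 CPM per kilobase in Th1 and *H2-Aa* at 0.925 and 0.549.

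*H2-Ea-ps*, the α chain that would pair with *H2-Eb1*, had 0 counts in each library, where 3 counts were taken as the limit of detection. C57BL/6 mice carry a defect in this gene and lack the I-E molecule, so that the *H2-Eb1* transcript has no partner there.

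**Figure D2:**
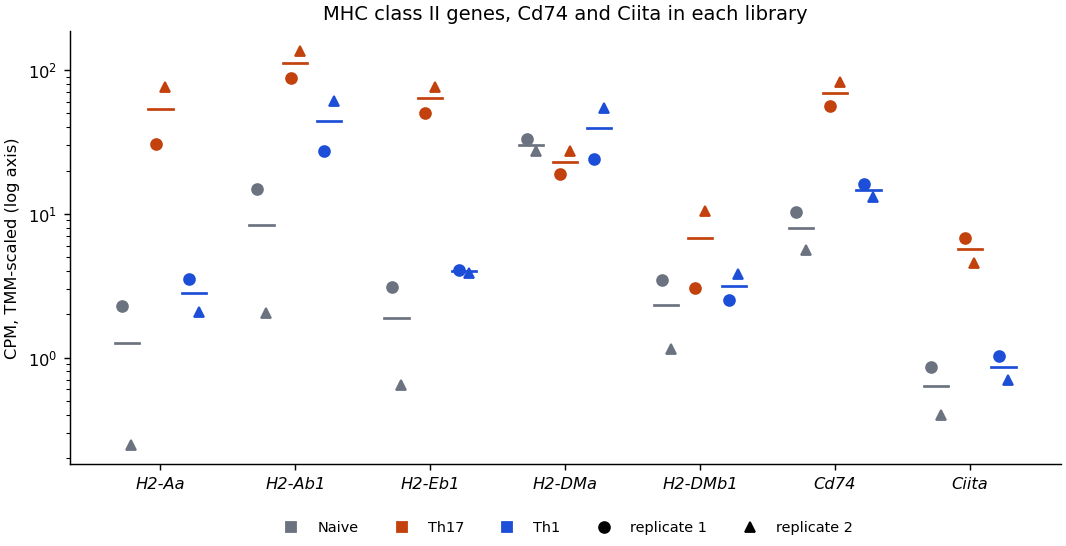
TMM-scaled CPM (log axis) of the 7 genes in each library, coloured by cell type, with circles for replicate 1, triangles for replicate 2 and a bar at the mean of the 2 replicates. The Th17 libraries lie above the other 4 for *H2-Aa*, *H2-Ab1*, *H2-Eb1*, *Cd74* and *Ciita*, and the cell types overlap for *H2-DMa* and *H2-DMb1*.

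*Cd74*, which encodes the invariant chain, followed the classical chains. It had 10.4 and 5.65 CPM across the Naive libraries, 56.6 and 83.3 across Th17 and 16.1 and 13.1 across Th1. The 3 cell types did not overlap, with Naive lowest and Th17 highest. *Cd74* lies on chromosome 18 from 60803848 to 60812652. It rose from Naive to Th17 by a log2 fold change of 3.12 (SE 0.38, adjusted p = 8.5e-04). From Th17 to Th1 it changed by -2.26 (SE 0.37, adjusted p = 0.0040), and compared with Naive the change was 0.86 (SE 0.36, adjusted p = 0.14). Per 100 counts of *H2-Ab1* there were 63.8 and 61.2 counts of *Cd74* in Th17, 69.9 and 278 in Naive, and 58.6 and 21.3 in Th1. The replicates of Naive and of Th1 thus differed more from each other in this ratio than those of Th17 did.

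*Ciita*, the coactivator on which class II transcription depends, was the least abundant of the 7 genes per kilobase in every library, between 0.0416 and 0.717 CPM per kilobase. It had 0.866 and 0.396 CPM (Naive), 6.84 and 4.58 CPM (Th17) and 1.02 and 0.695 CPM (Th1), from 8 counts in Naive replicate 2 to 447 counts in Th17 replicate 1. The Th17 libraries were above the other 4, and the Naive and Th1 libraries overlapped. *Ciita* lies on chromosome 16 from 10480059 to 10528418, and 3.45% of its exon bases are also in *Dexi* on the other strand. It rose from Naive to Th17 by 3.11 on the log2 scale (SE 0.58, adjusted p = 0.0072). The call was lost when any of the 4 libraries compared was left out, with an adjusted p of 0.010 without Naive replicate 1, 0.027 without Naive replicate 2, 0.051 without Th17 replicate 1 and 0.024 without Th17 replicate 2. Compared with Th17, the change in Th1 was -2.70 (SE 0.57, adjusted p = 0.013), which did not pass 0.01, whereas DESeq2 called it (adjusted p = 1.6e-04).

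Neither *H2-DMa* nor *H2-DMb1*, the peptide exchange genes of the set, had both Th17 libraries above the other 4. *H2-DMa*, the α chain of H2-DM, had 33.4 and 27.2 CPM in Naive cells, 18.8 and 27.4 in Th17 cells and 24.2 and 54.8 in Th1 cells. All 3 cell types overlapped, and the highest library was a Th1 library. The log2 fold change from Naive to Th17 was -0.40 (SE 0.40, adjusted p = 0.51), and from Th17 to Th1 it was 0.77 (SE 0.40, adjusted p = 0.20). *H2-DMb1*, a β chain of H2-DM, had 3.48 and 1.14 CPM across the Naive libraries, 3.03 and 10.5 across Th17 and 2.51 and 3.79 across Th1. One Th17 library was the highest and the other lay within the range of Naive. The *H2-DMb1* means of 2.31 (Naive), 3.15 (Th1) and 6.78 CPM (Th17) kept the order of the classical chains. Its change from Naive to Th17 was 1.5 (SE 0.69, adjusted p = 0.16).

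*H2-DMa* made up 48.9% and 72.9% of the counts of the 7 genes in the Naive libraries, 7.38% and 6.59% in Th17, and 30.7% and 39.2% in Th1. It lies on chromosome 17 from 34119541 to 34139101, and 360 of its 3448 exon bases (10.4%) are also exon bases of *Brd2* on the other strand. *Brd2* had 33478 counts in Naive replicate 1, where *H2-DMa* had 2275. The methods and the supplementary code differ on whether reads were counted with the strand option for reverse-stranded libraries, so reads of the shared bases may have been counted for either gene. *H2-DMb1* lies at 34153072 to 34160230 on that chromosome and shares sequence with its neighbour *H2-DMb2*. Of the 1579 distinct 100-base stretches of its transcripts, 179 (11.3%) occur unchanged in *H2-DMb2*. A read pair that lay wholly in such stretches could not be assigned to one gene, and how many pairs did was not examined.

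Across the 7 genes, 4 were called higher in Th17 than in Naive, *H2-Aa*, *H2-Eb1*, *Cd74* and *Ciita*, and none lower, where 4.01% of the 13607 genes tested were called higher and 1.43% lower. Without Th17 replicate 2 the number called was 2 in place of 4. The median log2 fold change of the 7 was 3.12, against -0.02 for all genes tested. Both Th17 libraries lay above both Naive libraries for 5 of the 7 and below them for none, against 32.4% and 33.1% of all genes tested. The log2 ratio was higher between the replicate 2 libraries than between the replicate 1 libraries for each of the 7 genes, as in *H2-Ab1* with log2 ratios of 6.07 and 2.58. Libraries matched in this way share only a replicate number, so the ratios describe the values and are not a paired effect.

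From Naive to Th1, 0 of the 7 genes were called by edgeR and 0 by DESeq2, where 4.64% of genes tested were called higher and 2.81% lower, 7.45% in all. Each fitted change was above 0, the median was 0.86, and 2 of the 7 had an unadjusted p-value under 0.05. The largest change was that of *H2-Ab1*, at 2.36 (SE 0.72, adjusted p = 0.051). This value turned on the Naive replicates: without Naive replicate 1 the change was 4.44 (adjusted p = 0.0019), and *H2-Eb1* was also called, at 2.62 (adjusted p = 0.0098). Both Th1 libraries lay above both Naive libraries for 3 of the 7 genes and below them for none, against 27.6% and 28.4% of all genes tested.

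Th1 compared directly with Th17 had 3 of the 7 genes called lower, *H2-Aa*, *H2-Eb1* and *Cd74*, and none higher, where 2.83% of genes tested were called lower and 2.7% higher. The median log2 fold change was -2.26, against -0.03 for all genes tested. Without Th17 replicate 2 or without Th1 replicate 2, 0 of the 7 were called, although the medians then were -1.95 and -2.12. Without Th1 replicate 1 *H2-Aa* was not called (-4.69, adjusted p = 0.014), and without Th17 replicate 1 *Cd74* was not (-2.51, adjusted p = 0.010). The 3 comparisons share libraries in pairs, so they are not independent of each other. Both Th1 libraries lay below both Th17 libraries for 5 of the 7 genes and above them for none, against 35.1% and 31.5% of all genes tested. In order of their means, Naive, Th1 and Th17 were lowest to highest for 6 of the genes and Th17, Naive and Th1 for *H2-DMa*, and the step from Naive to Th1 was not called for any of them.

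**Figure D3:**
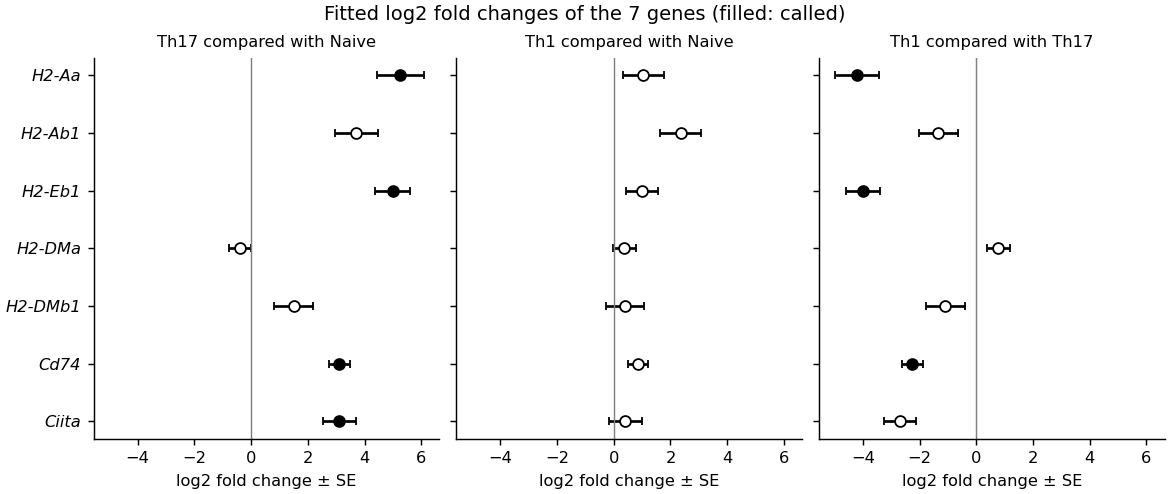
Fitted log2 fold changes of the 7 genes with standard errors in the 3 comparisons, where filled points mark genes called at the thresholds of 0.01 on the adjusted p and 1 on the size of the change. From Naive to Th17 4 points are filled, from Naive to Th1 none is, and from Th17 to Th1 3 are.

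The Naive replicates differed in the classical chains. Summed over *H2-Aa*, *H2-Ab1* and *H2-Eb1*, Naive replicate 1 had 20.2 CPM and replicate 2 had 2.92 CPM, while the Th17 libraries had 170 and 290 CPM and the Th1 libraries 35.0 and 67.3 CPM. Naive replicate 2 had 5 counts of *H2-Aa*, 41 of *H2-Ab1* and 13 of *H2-Eb1*. Fold changes against Naive rest in part on these few counts. Placed among all genes tested by CPM per kilobase, *H2-Ab1* was above 24.9% of genes in Naive replicate 2 and 53.0% in replicate 1, and above 89.3% and 92.8% in Th17. *Cd74* in Th17 was likewise above 89.0% and 92.3% of genes.

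The remaining class II chains fell into separate patterns. *H2-DMb2*, the other β chain of H2-DM, had 1.10 and 0.693 CPM (Naive), 7.24 and 7.24 CPM (Th17) and 2.21 and 2.78 CPM (Th1). The 3 cell types did not overlap, and *H2-DMb2* rose from Naive to Th17 by 2.98 (SE 0.48, adjusted p = 0.0034). *H2-Eb2*, a second E β chain, had 17 and 0 counts in Naive cells, 152 and 66 in Th17 cells and 2 and 0 in Th1 cells, where it was at the limit of detection. It was called lower in Th1 than in Th17 (adjusted p = 0.0054), at least 25.7-fold when Th1 is set at 3 counts per library. From Naive to Th17 its change of 4.22 was not called (SE 0.93, adjusted p = 0.016).

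H2-O, the antagonist of H2-DM, is made of *H2-Oa* and *H2-Ob*, and neither followed the classical chains. *H2-Ob* had 28.9 and 39.2 CPM in Naive cells, 22.6 and 26.7 in Th17 cells and 2.27 and 16.9 in Th1 cells. Naive was highest and Th1 lowest without overlap, but the Th1 replicates differed widely and no comparison was called (adjusted p between 0.10 and 0.65). *H2-Oa* had 2.95 and 3.86 CPM across the Naive libraries, 3.44 and 4.13 across Th17 and 4.75 and 15.9 across Th1. Its largest change was that from Naive to Th1, at 1.59 (SE 0.56, adjusted p = 0.084). Of its exon bases, 22.8% are shared with an antisense gene. *H2-Ob* and *H2-Eb1* both carry the pair of promoter cores shown above. The order of the cell types differed between them, although no change of *H2-Ob* was called. A link between these cores and the expression values was not tested.

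The factors that bind class II promoters were present in all libraries. The 7 genes *Rfx5*, *Rfxap*, *Rfxank*, *Nfya*, *Nfyb*, *Nfyc* and *Creb1*, the subunits of RFX and NF-Y and a CREB factor, lay between 15.9 and 137 CPM. None was called in any comparison. *Nfya* had 95.1 and 87.6 CPM (Naive), 57.4 and 45.2 CPM (Th17) and 94.8 and 73.8 CPM (Th1), and its change from Naive to Th17 was -0.83 (SE 0.26, adjusted p = 0.059). *Rfx5* was at 31.7 and 38.9 CPM in Naive cells, 25.7 and 23.7 in Th17 cells and 32.5 and 26.2 in Th1 cells. The *Rfxank* libraries all lay between 15.9 and 19.9 CPM.

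Among genes whose products act on *Ciita*, those called were *Spi1*, *Irf8* and *Prdm1*. *Spi1* encodes PU.1, a myeloid and B cell factor that acts at *Ciita* promoters used in those cells. It had 19.5 and 6.29 CPM across the Naive libraries, 33.2 and 28.9 across Th17 and 1.61 and 1.83 across Th1. The Th1 libraries were lowest, and *Spi1* changed by -4.18 from Th17 to Th1 (SE 0.54, adjusted p = 0.0012) and by -2.93 from Naive to Th1 (SE 0.52, adjusted p = 0.0044). *Irf8*, an interferon regulatory factor of dendritic cells and B cells, had 172 and 128 CPM in Th1 against 58.8 and 37.5 CPM in Naive cells and 30.6 and 28.0 CPM in Th17. It rose from Naive to Th1 by 1.64 (adjusted p = 0.0054) and was higher in Th1 than in Th17 by 2.36 (adjusted p = 0.0013).

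*Prdm1* encodes Blimp-1, which represses *Ciita* in plasma cells. It had 32.7 and 36.5 CPM in Th1, 5.46 and 9.16 CPM in Naive cells and 12.0 and 4.87 CPM in Th17, and it rose from Naive to Th1 by 2.25 (SE 0.46, adjusted p = 0.0091). *Irf1*, which encodes a factor of the interferon-γ response that acts on *Ciita*, was 1.02 higher in Th1 than in Th17 on the log2 scale (SE 0.27, adjusted p = 0.031). The libraries with the most *Irf1* and *Irf8* were those of Th1, and those with the most *Ciita* were those of Th17. Whether these factors acted on *Ciita* in these cultures was not tested.

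**Figure D4:**
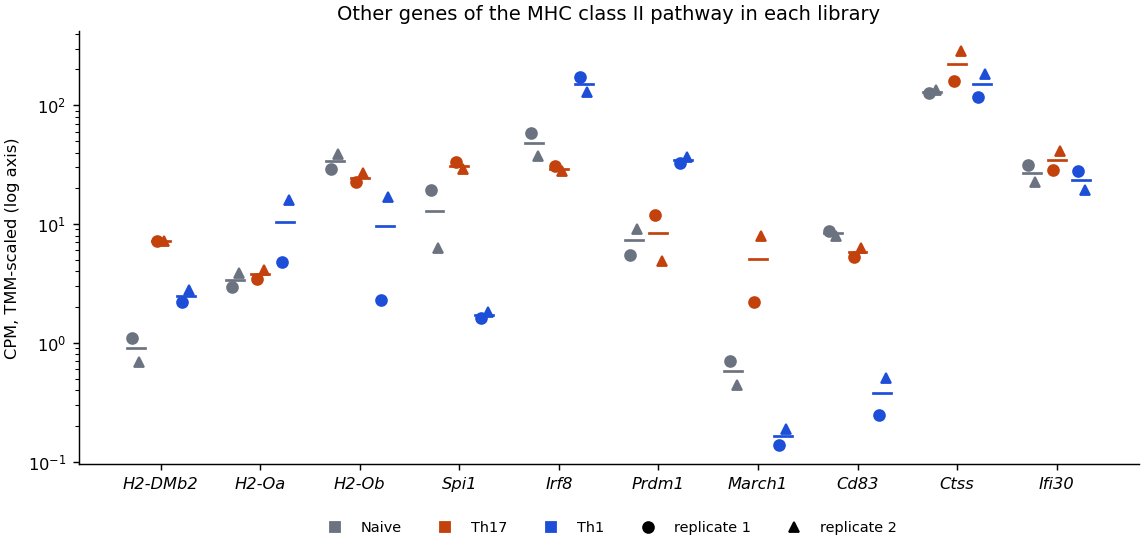
TMM-scaled CPM (log axis) of 10 other class II pathway genes in each library, drawn as for the 7 genes. *H2-DMb2*, *Spi1* and *March1* have their highest means in Th17, *Irf8* and *Prdm1* in Th1, and *H2-Ob* and *Cd83* in Naive.

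The proteases and the reductase that prepare peptides were expressed everywhere and none was called. *Ctss*, the cathepsin that trims the invariant chain, had 128 and 133 CPM (Naive), 161 and 286 CPM (Th17) and 118 and 182 CPM (Th1). *Ctsl* was higher in Th17 replicate 2 than elsewhere, at 45.8 CPM, and between 3.88 and 21.0 CPM in the other 5 libraries. *Ifi30*, the lysosomal thiol reductase, ranged from 19.4 to 41.2 CPM. *Sppl2a*, which cleaves the last stub of CD74 in the membrane, had 80.4 and 79.0 CPM in Naive cells and 160 and 141 CPM in Th1, a change of 0.92 (SE 0.25, adjusted p = 0.033) that was not called.

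*March1* and *Cd83* govern how long class II stays at the cell surface: MARCH1 tags it for degradation, and CD83 opposes MARCH1. *March1* had 0.705 and 0.446 CPM in Naive cells, 2.19 and 7.98 in Th17 cells and 0.139 and 0.190 in Th1 cells, from 3 to 143 counts per library. From Th17 to Th1 it changed by -4.99 (SE 0.82, adjusted p = 0.0041). *Cd83* had 8.76 and 7.97 CPM across the Naive libraries, 5.31 and 6.28 across Th17 and 0.248 and 0.506 across Th1. Both Th1 libraries were far below the other 4, and *Cd83* fell from Naive to Th1 by 4.61 on the log2 scale (SE 0.53, adjusted p = 5.0e-04).

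Of the 28 pathway genes tested beside the 7, 1 was called higher and 0 lower from Naive to Th17. From Naive to Th1 2 were called higher and 2 lower. Between Th1 and Th17, 1 was higher in Th1 and 4 were lower, among them *H2-Eb2*, *Spi1*, *March1* and *Cd83*. The medians over the 28 genes were 0.23, 0.17 and -0.05, close to the medians of -0.02, -0.02 and -0.03 over all genes tested. Over all genes tested, 5.43%, 7.45% and 5.53% were called in either direction. DESeq2 called 4, 5 and 9 of the 28 in the same order of comparisons.

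Markers of cells that normally carry class II were read in each library as summed CPM. The 12 B cell markers summed to 17.4 and 13.4 CPM (Naive), 31.0 and 24.4 CPM (Th17) and 6.75 and 7.59 CPM (Th1). Of these, 7 were above 1 CPM in both Th17 libraries, 4 and 3 in Naive, and 2 and 4 in Th1. None was at 0 counts in Th17, while 0 and 6 were in Naive and 1 and 5 in Th1. *Cd22* and *Cd79b*, parts of or partners of the B cell receptor, had at most 5.60 and 5.33 CPM. *Cd79a*, its signalling chain, had 4.21 and 2.72 CPM in Naive cells, 5.71 and 3.51 in Th17 cells and 1.5 and 1.58 in Th1 cells. *Ms4a1* stayed under 1 CPM in every library, and *Pax5* was between 0 and 0.643 CPM. By edgeR, *Ebf1* was the only B cell marker called higher in Th17 than in Naive, of 9 tested.

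The 11 macrophage and monocyte markers summed to 37.3 and 18.1 CPM across the Naive libraries, 244 and 815 across Th17 and 16.4 and 15.0 across Th1. *Lyz2* supplied most of it in Th17, with 223 and 762 CPM, so the summed values there rest largely on that gene. *Csf1r*, the receptor that defines the lineage, had 7.41 and 4.80 CPM (Naive), 5.34 and 11.7 CPM (Th17) and 0.418 and 0.443 CPM (Th1). Its log2 fold change of 0.47 from Naive to Th17 was not called by edgeR (SE 0.48, adjusted p = 0.52). From Naive to Th17, 4 of the 10 tested were called higher, *Lyz2*, *Cd14*, *Fcgr1* and *Mrc1*. *C1qa*, *C1qb* and *C1qc*, complement genes of tissue macrophages, had 1.70, 6.22 and 3.23 CPM in Th17 replicate 2 and less than 1 CPM in the other 5 libraries. Th17 replicate 2 was also the library with the most *H2-Aa*, *H2-Ab1*, *H2-Eb1*, *Cd74* and *H2-DMb1*. Without it the change from Naive to Th17 was 4.51 for *H2-Aa*, against 5.27 with it, 3.37 for *H2-Ab1*, against 3.70, 4.68 for *H2-Eb1*, against 4.99, 2.81 for *Cd74*, against 3.12, and 0.36 for *H2-DMb1*, against 1.5. *H2-Eb1* and *Cd74* were then the 2 genes called, where 4 were called with it.

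The 10 dendritic cell markers summed to 57.2 and 65.6 CPM in Naive cells, 52.6 and 68.6 in Th17 cells and 81.4 and 68.2 in Th1 cells, and *Ly75* alone had between 22.7 and 68.9 CPM. By edgeR, 1 of the 9 tested was called higher and 0 lower from Naive to Th17, 2 higher and 1 lower from Naive to Th1, and 0 between Th17 and Th1. *Batf3*, a transcription factor of cross-presenting dendritic cells, had 16.3 and 12.6 CPM in Th17, 5.83 and 2.02 CPM in Th1 and 0.25 and 0.149 CPM in Naive cells. It rose from Naive to Th17 by 6.06 (SE 0.66, adjusted p = 5.2e-04) and from Naive to Th1 by 4.21 (SE 0.63, adjusted p = 0.0020). *Xcr1*, a chemokine receptor of the same cells, rose from Naive to Th1 by 3.04 (SE 0.51, adjusted p = 0.0034) and had a change of 2.23 from Naive to Th17 that was not called (SE 0.50, adjusted p = 0.017). *Itgax*, which encodes CD11c, had 23.8 CPM in Th17 replicate 2 and between 0.126 and 1.5 CPM in the other 5. *Flt3* had 6.65 and 2.48 CPM in Naive cells, 1.24 and 1.47 CPM in Th17 and 0.139 and 0.126 CPM in Th1, and fell from Naive to Th1 by 5.06 (SE 0.73, adjusted p = 0.0016). *Zbtb46* was highest in Naive replicate 1, at 7.05 CPM, and between 0.418 and 1.70 CPM elsewhere. *Siglech* and *Cd209a* had 0 counts in all 4 Th17 and Th1 libraries and under 0.5 CPM in Naive. The 8 neutrophil markers, cells not counted as usual carriers of class II, summed to 2904 and 2793 CPM in Th17, 314 and 191 CPM in Naive cells and 27.7 and 39.5 CPM in Th1. *S100a8* and *S100a9* led them in Th17, with at least 1142 and 1039 CPM, and *Mpo* in Naive, with 251 and 159 CPM. The 6 CD8 and NK cell markers summed to 44.4 and 46.1 CPM across the Naive libraries, 9.84 and 7.53 across Th17 and 19.0 and 23.2 across Th1. The part of these cells in the class II values was not tested.

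Class II and these markers did not move in a fixed ratio. There were 3.52 and 0.745 counts of *H2-Ab1* per count of *Cd79a* in Naive cells, 15.5 and 38.8 in Th17 cells and 18.3 and 38.8 in Th1 cells. Per count of *Csf1r* there were 2.00 and 0.423 counts of *H2-Ab1* in Naive cells, 16.6 and 11.6 in Th17 cells and 65.6 and 139 in Th1 cells. In Th1, *H2-Ab1* was higher than in Naive in both libraries. The summed B cell and macrophage markers were lower there in both libraries, and the summed dendritic cell markers were higher in both. *Ly75* supplied most of that dendritic cell sum, with 68.9 and 59.3 CPM in Th1 and 39.0 and 60.1 CPM in Naive cells. Of the 9 dendritic cell markers tested, 3 were higher in Th1 than in Naive and 6 were lower, with a median log2 fold change of -2.13. Which cells held the *H2-Ab1* transcripts was not tested. *Cd40*, a costimulatory receptor of presenting cells, had 5.95 and 6.45 CPM in Th17, 0.103 and 0.0990 CPM in Naive cells and 0.356 and 0 CPM in Th1, and it was called higher in Th17 than in Naive (log2 fold change 5.89, SE 0.91, adjusted p = 0.0027). *Cd80*, a ligand of CD28, was also called, with 5.0 and 4.24 CPM in Th17 against 0.572 and 0.792 CPM in Naive (log2 fold change 2.79, adjusted p = 0.0076). *Cd86* was not (1.36, adjusted p = 0.036). In Th1, *Cd80* had 4.6 and 2.7 CPM and *Cd86* had 10.69 and 19.35 CPM. Their changes from Naive to Th1 were 2.45 (adjusted p = 0.011) and 1.30 (adjusted p = 0.040), and neither was called.

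**Figure D5:**
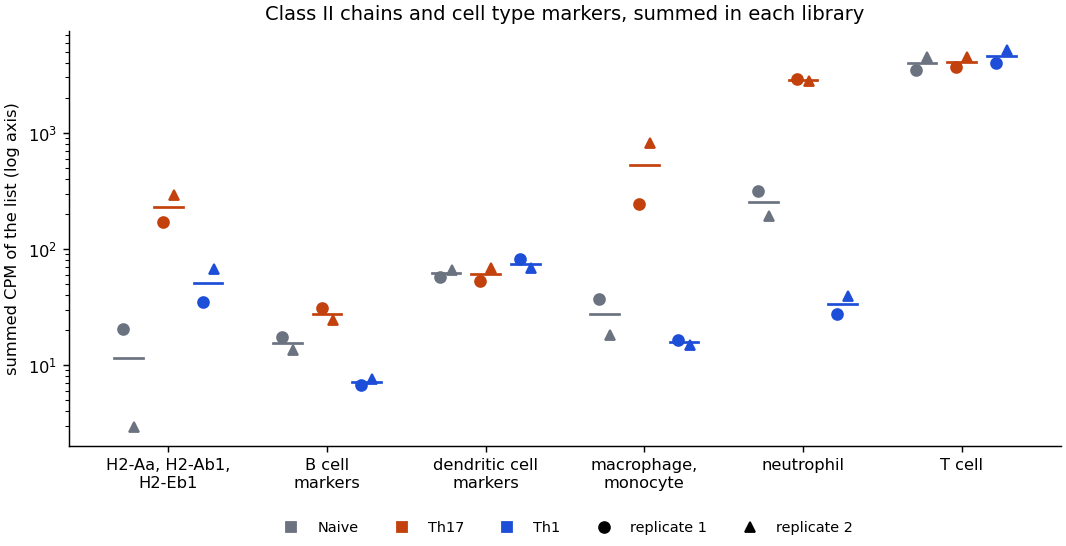
Summed CPM (log axis) of the 3 classical chains and of marker lists of 5 cell types in each library, with a bar at the mean of the 2 replicates. The classical chains, B cell, macrophage and neutrophil lists have their highest values in Th17, and the T cell list lies between 3493 and 5165 CPM in all libraries. *Lyz2* supplies most of the macrophage list in Th17.

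Over the 6 libraries, the log2 CPM of *Cd74* had a Pearson's r of 0.994 with *H2-Eb1* and 0.989 with *H2-Aa*, and *Ciita* had 0.970 with *H2-Eb1*. *H2-DMa* had an r of -0.279 with the mean of the other 6 genes, each of which had between 0.801 and 0.943 with the mean of the rest. These are 6 points in 3 pairs that share a cell type, so no p-value is given. Of 11349 other genes with a mean log2 CPM above 0, those most like the mean of the 7 were *Tspo*, *Lamtor5*, *Ppp1cc*, *Ndufa7*, *Commd5*, *Tmem218*, *Dstn*, *Gpx4*, *Brk1* and *2810403D21Rik*, with r from 0.991 to 0.997. Their spans differed: *Tspo* went from 184 CPM in Naive replicate 2 to 577 CPM in Th17 replicate 2. Between the same libraries *2810403D21Rik* went from 0.792 to 8.71 CPM. Of the 7 genes, *H2-Aa* went from 0.248 to 76.4 CPM there and *H2-DMa* from 27.2 to 27.4 CPM. By Spearman's rho, 86 genes shared the highest value of 1, and 6 of the 10 were among them.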

How the data were processed

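The RNA-Seq counts came from 2 libraries of each of 3 mouse cell types. Per the methods and the labels, the authors mapped reads to mm10 with HISAT2 (2.2.1), removed duplicates and counted reads per gene with HTSeq (0.13.5). What they deposited are raw counts, not normalized, with 1 table a library. The gene annotation they used is not given in the sources used here.

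The count model was edgeR 4.0.16 in R 4.3.3, with DESeq2 1.42.0 as an alternative. Of 24223 genes, 17846 had a count and the 13607 that passed filterByExpr were tested. The scaling was TMM (factors 0.862 to 1.09). One quasi-likelihood model of all 6 libraries had cell type as its only term. A call needed an absolute log2 fold change above 1 and an adjusted p (Benjamini-Hochberg) below 0.01. Standard errors are the log2 fold change divided by the square root of the F statistic. Correlations used log2 CPM with a prior count of 2. Exon lengths, coordinates and overlaps came from GENCODE vM21 (GRCm38, or mm10), where 23017 symbols matched 1 gene.

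The 7 genes and all lists were chosen with earlier results of these data known. The genes named are the 7, pathway genes called in any comparison, the other class II chains and promoter-binding factors, the leading and defining genes of each marker list, and the 10 genes most like the 7. Further pathway genes, label-check genes, *Cd40*, *Brd2* and some markers were named after their values were seen. Of the markers listed, 5 were not analysed here: *Ighm*, *Ighd*, *Igkc*, *Iglc2* and *Adgre1*. *March1* is named as in the files. Some genes of these lists are not reported here.

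The alternatives were DESeq2, RLE, library size alone, other filters, the replicate block, only the 4 libraries compared, thinning, other thresholds and leaving out each library. The model was tested on simulated data. Depth bears on counting error only, since reads are not independent molecules.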

Additional observations from a re-analysis of the deposited data

How the results depend on the processing

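No direction of a median or of a call was reversed. The number of the 7 genes called between Naive and Th17 was 4, and lay between 2 and 5 as each library was left out. With at least 10 counts demanded in every library it was 2, since *H2-Aa* and *Ciita* then leave the test. From Th17 to Th1 it was 3, with 0 to 4 as libraries were left out, 5 without a filter, and 2 when scaled by library size alone. From Naive to Th1 it was 0, with 0 to 2 as libraries were left out and 1 without a filter. The medians of the 7 log2 fold changes were 3.12, 0.86 and -2.26 and ranged from 2.76 to 3.85, from 0.33 to 1.45 and from -2.43 to -1.95 as libraries were left out. The demand for 10 counts brought the last to -1.44, by leaving out *H2-Aa* and *Ciita*.

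Of the 28 pathway genes, 1 was called from Naive to Th17, and 4 by DESeq2, 5 without a filter, 3 from only the libraries compared, 4 at an adjusted p under 0.05 and 0 to 3 as libraries were left out. From Naive to Th1 it was 4, with 2 under library size alone, 8 without a filter and 2 to 4 as libraries were left out. From Th17 to Th1 it was 5, with 9 by DESeq2, 9 without a filter, 9 at an adjusted p under 0.05, 2 with at least 10 counts and 2 to 7 as libraries were left out. Of the genes most like the 7, 6 stayed at the highest value under Spearman's rho. Where no cause is named, the cause was not tested.

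Replicates share only a number: with it as a block, edgeR called 5, 0 and 4 of the 7 genes and DESeq2 4, 0 and 4. Of the 28, edgeR with the block called 3, 6 and 6, and DESeq2 with the block 4, 6 and 8. The deviations of equally numbered libraries had an r of -0.231 for Naive with Th17, 0.168 for Naive with Th1 and 0.077 for Th17 with Th1, over 13607 genes. With 2 libraries a cell type, and as few as 5 counts of *H2-Aa* in Naive replicate 2, depth limits the low values.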
